A study of Homo sapiens with 14 samples.

Results

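The mitotic kinesins are motor proteins that walk along microtubules or shorten them to build the spindle, move the chromosomes and divide the cell. Transcripts of 10 such genes (KIF2C, KIF4A, KIF11, KIF14, KIF15, KIF18A, KIF18B, KIF20A, KIF23 and KIFC1) were followed here in 2 established human lung adenocarcinoma (LUAD) lines, A549 and H1792. The genes were chosen by name and found by symbol in the count table of each line, among 26732 genes listed in both. Cells received AMG900, which inhibits all aurora kinases, at 0.1 µM or the solvent DMSO alone, and total RNA was taken after 48 h. A549 has 4 DMSO and 4 AMG900 libraries and H1792 has 3 of each. Each group is therefore 1 line at 1 dose and 1 time, and the only control is solvent. The labels number the replicates and speak of dishes seeded in 3 replicates per treatment, although 4 are listed for A549. They do not say whether the dishes were separate experiments, so the p-values measure the spread between these libraries. Library totals were 4254644 to 18962883 counts in A549 (median 13709348, with DMSO replicate 1 the smallest) and 42760874 to 79902934 in H1792 (median 55061528).

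Markers of cell type were read first. Keratins KRT8 and KRT18 were high in A549 (means of 3200 and 1626 CPM with DMSO, where CPM is a count scaled to the TMM-adjusted library size) and lower in H1792 (456 and 261 CPM). H1792 had little of the epithelial cadherin CDH1 (0.681 CPM with DMSO) and much of the fibrillar collagen genes COL1A1 and COL1A2 (2312 and 1366 CPM), so among the epithelial markers H1792 was carried by its keratins. The epithelial surface gene EPCAM was low in both lines (0.301 and 3.40 CPM with DMSO). The T cell gene CD3E and the leukocyte gene PTPRC had between 0 and 4 counts in every library of either line. The summed level of the 4 haematopoietic markers rose from 2.0–6.29 to 9.64–11.3 CPM across the A549 groups, nearly all of it CD14, and lay between 1.35 and 2.66 CPM in H1792. In A549 the 3 endothelial markers summed to 0.224–5.92 CPM with DMSO (median 0.266) and 0.323–1.24 CPM with AMG900 (median 0.930). In H1792 they summed to 3.91–16.1 CPM (median 4.79) with DMSO and 8.09–9.15 CPM (median 8.15) with AMG900. The DMSO maxima were mostly VWF, at up to 5.83 and 10.6 CPM. The 5 epithelial markers summed to 4473–5653 CPM with DMSO and 6106–6878 CPM with AMG900 in A549, and to 659–819 and 818–830 CPM in H1792. The 5 mesenchymal markers summed to 1516–1756 and then 1358–1447 CPM in A549, and to 5882–6458 and then 5473–5592 CPM in H1792. In H1792 the members split: mean VIM rose from 2440 to 3032 CPM and PDGFRB from 10.8 to 13.2 CPM. COL1A1 fell from 2312 to 1547 CPM, COL1A2 from 1366 to 943 CPM and LUM from 4.21 to 1.82 CPM. The part of these shifts in the kinesin values was not tested.

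In a dividing cell the kinesin genes follow a shared timetable. Their transcripts are made mostly in G2 and mitosis, under the DREAM and MMB-FOXM1 complexes, which bind promoter letters called the cell cycle homology region (CHR), with the factor NF-Y at nearby CCAAT boxes. Several of the proteins are handled directly by aurora kinases: aurora B phosphorylates KIF2C, KIF4A and KIF23, and KIF20A carries aurora B to the spindle midzone. RNA from a whole dish cannot tell fewer cells in mitosis from less kinesin RNA per cell.

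In A549, AMG900 lowered 9 of the 10 genes, every one of them that could be tested, by 5.29-fold (KIF18A) to 15-fold (KIF18B). In H1792 the same dose lowered KIF11, KIF14 and KIF18A, raised KIF20A, and left the other 6 short of the threshold. The H1792 fall of KIF14 turned sign once GC content was modelled (values below). A gene is called here at an edgeR FDR under 0.01, the Benjamini-Hochberg adjusted p of the edgeR quasi-likelihood test over all genes tested. In A549, 17.8% of the 13174 genes tested were called lower and 17.2% higher, against 9 and 0 of 9 kinesins. Without DMSO replicate 1, the smallest library, the 9 were still called lower. In H1792, 18.8% of the 15017 genes tested were called lower and 16.2% higher, against 3 and 1 of 10 kinesins. The median log2 fold change (log2FC) of the kinesins was -3.17 in A549 and -0.15 in H1792, where the medians of all genes were -0.01 and 0.01. Summed over the 10 genes, the kinesins took 448.7 ± 16.3 CPM (SD, n = 4) of an A549 DMSO library and 53.7 ± 4.06 CPM (n = 4) with AMG900. In H1792 the sum was 572 ± 29.8 CPM (n = 3) with DMSO and 619 ± 6.51 CPM (n = 3) with AMG900, a sum to which KIF2C and KIF20A alone gave most of the counts.

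**Figure D1:**
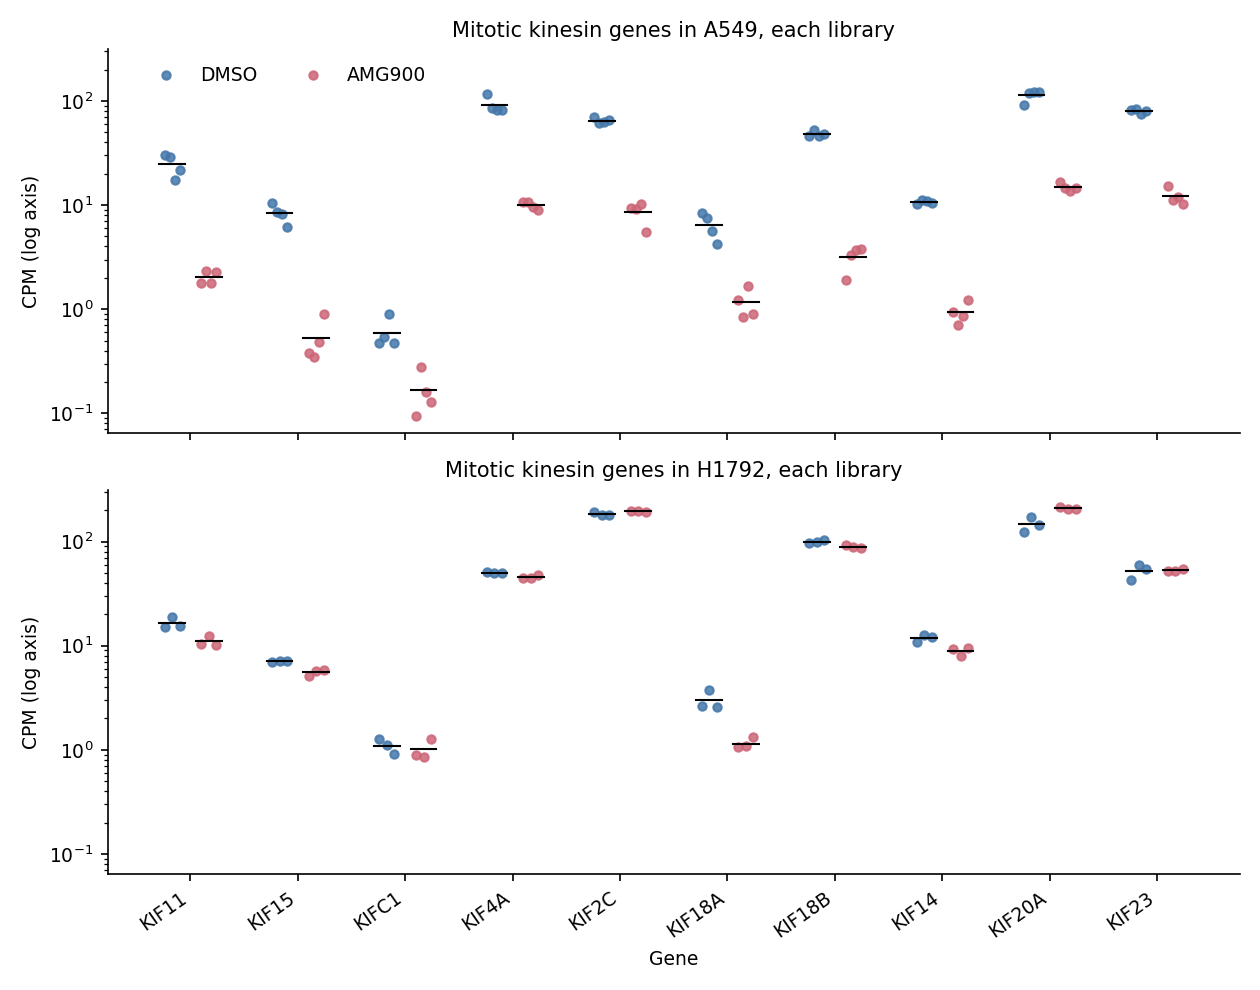
CPM of each kinesin gene (log axis) in every library of A549 (top) and H1792 (bottom), DMSO in blue and AMG900 in red, with black bars at the group means. In A549 the AMG900 points of each gene lie below all of its DMSO points, while in H1792 the groups lie close together except for KIF18A, which is lower, and KIF20A, which is higher with AMG900.

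Promoter windows of the 10 genes are shown because the kinesins fell together in A549. They come from RefSeq (GRCh38.p14, 300 bases around the annotated start, all 10 matched by symbol), and the searched letters on either strand are in capitals. The CHR letters TTTGAA were present in 8 of the 10 windows, against 15.2% of all 35116 promoter windows of this length. CCAAT was present in 8 of 10, against 34.6%, and the E2F core TTGGCGC in 3 of 10, against 3.04%. The other forms searched, TTCGAA and TTCGCGC, were in no kinesin window and in 1.45% and 2.24% of all windows. A match here is a run of letters, not a measured binding site, and no binding was measured in this series. The windows of 5 genes are printed: KIF11, called lower in both lines (chr10:92592880-92593179, plus strand), KIF18A, which fell in both lines (chr11:28108107-28108406, minus strand), KIF18B, with the largest fall in A549 (chr17:44947724-44948023, minus strand), KIF20A, which rose in H1792 (chr5:138178862-138179161, plus strand), and KIF2C, with none of the letters (chr1:44739587-44739886, plus strand).
KIF11: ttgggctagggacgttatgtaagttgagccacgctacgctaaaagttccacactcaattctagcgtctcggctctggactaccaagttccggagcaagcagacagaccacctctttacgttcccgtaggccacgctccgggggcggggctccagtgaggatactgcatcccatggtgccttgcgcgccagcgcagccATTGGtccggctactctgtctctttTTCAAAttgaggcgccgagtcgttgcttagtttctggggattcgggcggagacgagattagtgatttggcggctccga
KIF18A: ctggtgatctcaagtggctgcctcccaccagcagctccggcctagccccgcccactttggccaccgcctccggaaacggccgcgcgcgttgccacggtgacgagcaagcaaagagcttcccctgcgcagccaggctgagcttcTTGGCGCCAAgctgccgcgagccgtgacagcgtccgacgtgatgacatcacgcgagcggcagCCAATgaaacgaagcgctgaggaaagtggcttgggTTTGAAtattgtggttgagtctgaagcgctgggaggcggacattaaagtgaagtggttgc
KIF18B: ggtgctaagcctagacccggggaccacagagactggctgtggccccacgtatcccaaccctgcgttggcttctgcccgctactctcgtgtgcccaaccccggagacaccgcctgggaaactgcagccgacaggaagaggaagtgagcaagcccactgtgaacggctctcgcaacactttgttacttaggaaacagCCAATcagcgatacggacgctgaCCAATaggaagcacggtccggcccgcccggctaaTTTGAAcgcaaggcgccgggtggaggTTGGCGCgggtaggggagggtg
KIF20A: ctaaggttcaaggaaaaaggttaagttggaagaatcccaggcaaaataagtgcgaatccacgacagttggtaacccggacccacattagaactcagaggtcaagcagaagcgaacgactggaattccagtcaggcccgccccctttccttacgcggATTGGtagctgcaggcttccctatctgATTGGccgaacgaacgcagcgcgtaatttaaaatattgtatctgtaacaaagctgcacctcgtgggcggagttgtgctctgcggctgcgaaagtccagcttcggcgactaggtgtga
KIF2C: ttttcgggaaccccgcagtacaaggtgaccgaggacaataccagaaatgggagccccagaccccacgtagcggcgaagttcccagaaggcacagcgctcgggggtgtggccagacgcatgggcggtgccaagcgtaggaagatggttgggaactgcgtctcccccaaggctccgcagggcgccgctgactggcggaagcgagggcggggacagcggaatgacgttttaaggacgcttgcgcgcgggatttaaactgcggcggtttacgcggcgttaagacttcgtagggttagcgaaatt
Counting the start as base 0, the CHR letters of KIF11 lie on the other strand at -28 to -23, with a CCAAT box at -53 to -49. KIF18A has CHR letters at -10 to -5 on the gene strand, and a palindrome at -107 to -98 gives its E2F core on both strands. KIF18B, like KIF18A, has all 3 kinds of letters, and it has a pair of CCAAT boxes. KIF20A has CCAAT boxes at -94 to -90 and -67 to -63 but neither CHR form. The window of KIF2C holds none of the 5 motifs. The part of any motif in the changes was not tested.

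**Figure D2:**
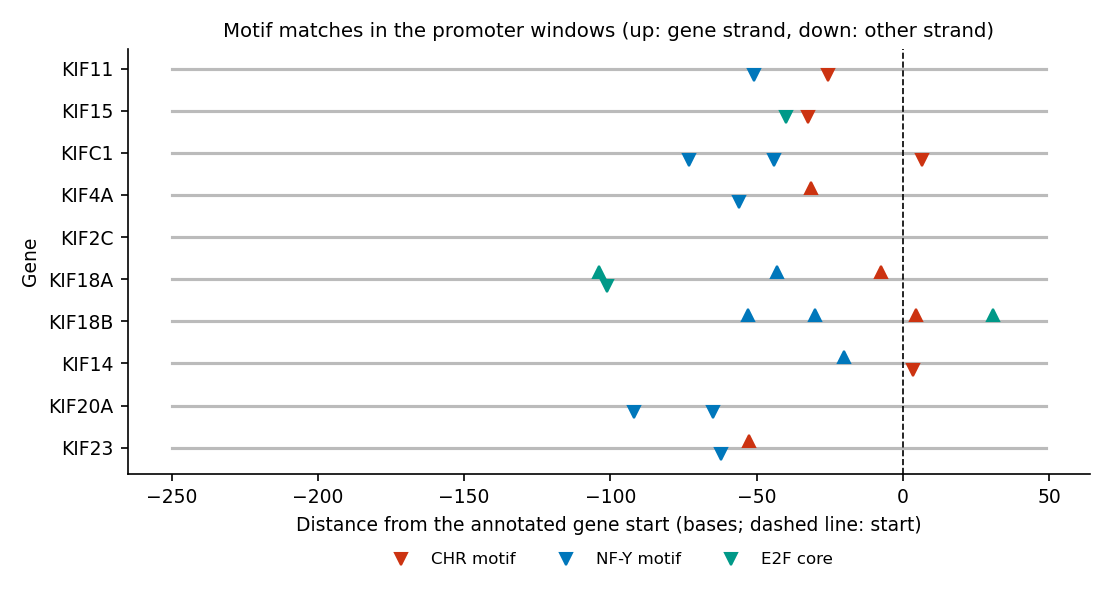
Matches to the searched letters in the promoter window of each kinesin gene (x axis: distance from the annotated start in bases), with triangles pointing up for the gene strand and down for the other strand and colours for the CHR, NF-Y (CCAAT) and E2F core letters. The CHR matches of 8 genes lie close to the start, between -55 and 9, and KIF2C has no match.

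Motors that set up the 2 spindle poles come first. KIF11 (Eg5; GRCh37 chr10:94333862-94415152) pushes the poles apart by sliding antiparallel microtubules. In A549 its level was 30.5, 28.9, 17.4 and 21.5 CPM in the 4 DMSO libraries and 1.79, 2.32, 1.78 and 2.26 CPM in the 4 AMG900 libraries. The groups were far apart, and KIF11 fell 11.8-fold (log2FC -3.56 ± 0.21 SE, edgeR FDR = 6.2e-09). In H1792 it stood at 15.1, 18.9 and 15.3 CPM with DMSO and 10.5, 12.5 and 10.1 CPM with AMG900. Here too every AMG900 library was below every DMSO library, but the fall was 1.49-fold (log2FC -0.57 ± 0.12 SE, edgeR FDR = 0.0021). That call was lost without AMG900 replicate 1 (FDR = 0.0154) and without AMG900 replicate 3 (FDR = 0.0138), as well as with the GC correction described later and when the H1792 counts were thinned to the A549 depth (FDR = 0.0148).

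KIF15 (chr3:44803213-44914868) can keep the spindle bipolar when KIF11 is blocked. It had 10.6, 8.56, 8.22 and 6.11 CPM in A549 DMSO libraries and 0.378, 0.351, 0.485 and 0.905 CPM with AMG900, the latter from 4 to 14 counts per library. This was a 14.9-fold fall (log2FC -3.90 ± 0.31 SE, edgeR FDR = 1.8e-07), with the largest SE among the 9 falls. In H1792 its values were 6.94, 7.18 and 7.11 CPM with DMSO and 5.17, 5.71 and 5.90 CPM with AMG900. The groups did not overlap, yet the log2FC of -0.34 ± 0.10 SE missed the threshold (edgeR FDR = 0.0177).

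KIFC1 (chr6:33359600-33377673), a minus-end motor that gathers microtubules at the poles, was barely counted. A549 libraries held 2, 6, 12 and 8 counts with DMSO and 1, 4, 3 and 2 counts with AMG900 (0.470 to 0.897 and 0.0945 to 0.281 CPM), so KIFC1 did not pass the filter on low counts and was not tested there. Without that filter its log2FC was -1.79 ± 0.72 SE (edgeR FDR = 0.0531). H1792 had 83, 54 and 40 counts with DMSO and 69, 43 and 74 with AMG900, groups that overlap (log2FC -0.13, 95% interval -0.70 to 0.44, edgeR FDR = 0.700). Its neighbours, looked up after these counts were seen, were low as well. The 19 protein-coding genes within 200 kb had a median of 0.757 CPM in A549 and 1.22 CPM in H1792 with DMSO, against 12.9 and 25.8 CPM for 28 such genes in a nearby stretch of chromosome 6 beyond the MHC region. The windows overlap slightly, and BAK1 is in both sets. KIFC1 lies at the edge of the MHC region, for which hg19 also has alternate haplotype copies. Whether reads were aligned to those copies is not given in the sources used here, and their part in the low counts was not tested.

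Chromosome motors and depolymerases form the second group. KIF4A (chrX:69509954-69640736), a chromokinesin that coats chromosome arms and later organises the midzone with PRC1, was at 115, 84.7, 81.2 and 82.1 CPM in A549 DMSO libraries and at 10.7, 10.7, 9.66 and 8.92 CPM with AMG900. Its fall was 9.03-fold (log2FC -3.17 ± 0.13 SE, edgeR FDR = 1.2e-10). Replicate 1 of the DMSO group, the smallest library, was the high one, and without it the log2FC was -3.05. H1792 showed 51.0, 49.8 and 50.1 CPM with DMSO and 44.6, 44.2 and 48.1 CPM with AMG900, a small shift with no overlap that was not called (log2FC -0.14 ± 0.06 SE, edgeR FDR = 0.0741). The near-identical intronless copy KIF4B shares reads with KIF4A, and how the counting split them is uncertain. KIF4B held at most 12 counts in any A549 library, and 14 to 126 in H1792.

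KIF2C (MCAK; chr1:45205490-45233439) takes microtubules apart at centromeres, where aurora B restrains it so that wrong attachments can be released. It stood at 70.0, 61.8, 62.4 and 65.2 CPM in A549 with DMSO and at 9.35, 9.13, 10.2 and 5.56 CPM with AMG900. This was a 7.56-fold fall (log2FC -2.92 ± 0.15 SE, edgeR FDR = 1.5e-09). In H1792, where KIF2C was the most abundant of the 10 genes per length with DMSO, it had 192, 179 and 180 CPM with DMSO and 198, 197 and 191 CPM with AMG900. Those groups overlapped, and the log2FC of 0.09 had a 95% interval from -0.02 to 0.21 (edgeR FDR = 0.169).

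KIF18A (chr11:28042166-28129703) calms the swinging of chromosomes at the metaphase plate by capping microtubule plus ends. Its A549 levels were 8.46, 7.47, 5.61 and 4.27 CPM with DMSO and 1.23, 0.842, 1.67 and 0.905 CPM with AMG900. H1792 levels were 2.64, 3.73 and 2.55 CPM with DMSO and 1.05, 1.08 and 1.31 CPM with AMG900. Of the 10 genes, KIF18A alone was called lower in both lines by more than 2-fold with TMM scaling, by 5.29-fold in A549 (log2FC -2.40 ± 0.30 SE, edgeR FDR = 1.7e-05) and 2.59-fold in H1792 (log2FC -1.37 ± 0.21 SE, edgeR FDR = 3.6e-04). Of all genes tested, 5.84% in A549 and 5.2% in H1792 were called lower at that size. Its H1792 call held in each of the 6 fits that left out a library and with the GC correction described later, which took the H1792 log2FC to -0.76, under 2-fold.

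KIF18B (chr17:43002077-43025141), which trims astral microtubules together with KIF2C, had 46.1, 53.0, 46.6 and 48.4 CPM in A549 with DMSO and 1.89, 3.30, 3.67 and 3.75 CPM with AMG900. With a 15-fold change it fell the most of the 10 genes (log2FC -3.91 ± 0.16 SE, edgeR FDR = 1.2e-10), slightly past KIF15, from which it did not differ beyond the SE. In H1792 it moved from 96.1, 99.4 and 104.5 CPM to 91.7, 88.8 and 87.1 CPM. These groups did not overlap, and the log2FC of -0.16 ± 0.06 SE was not called (edgeR FDR = 0.0296).

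The third group works at the midzone and midbody, where the daughter cells part. KIF20A (MKLP2; chr5:137514408-137523412) brings the chromosomal passenger complex to the midzone. In A549 it was the most abundant of the 10 genes with DMSO, at 90.9, 120.2, 121 and 121 CPM, and stood at 16.6, 14.7, 13.8 and 14.5 CPM with AMG900. It fell 7.68-fold (log2FC -2.94 ± 0.11 SE, edgeR FDR = 4.5e-11), and by 3.03 on the log2 scale without DMSO replicate 1, the low library. In H1792 it went the other way, from 124, 171 and 145 CPM to 213, 206 and 206 CPM. Every AMG900 library there was above every DMSO library, and KIF20A rose 1.42-fold (log2FC 0.51 ± 0.10 SE, edgeR FDR = 0.0015), the one gene of the 10 called higher in either line. The rise missed the threshold without AMG900 replicate 1 (log2FC 0.49, FDR = 0.0105) and kept its direction under every alternative run.

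KIF23 (MKLP1; chr15:69706585-69740766) is the motor of centralspindlin, the complex that bundles the midzone. A549 libraries had 81.5, 83.9, 75.3 and 80.7 CPM with DMSO and 15.4, 11.3, 12 and 10.3 CPM with AMG900. The fall was 6.6-fold (log2FC -2.72 ± 0.12 SE, edgeR FDR = 2.0e-10). In H1792 the DMSO libraries spread from 43.1 through 54.4 to 59.8 CPM and enclosed the AMG900 libraries at 52.1, 52.0 and 54.7 CPM. The log2FC was 0.02 with a 95% interval from -0.21 to 0.24 (edgeR FDR = 0.906), and its sign was not stable, at -0.05 with scaling by total counts and -0.13 without DMSO replicate 1.

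KIF14 (chr1:200520625-200589879) holds citron kinase at the midbody. It went from 10.3, 11.2, 10.9 and 10.6 CPM to 0.945, 0.702, 0.863 and 1.23 CPM in A549, a fall of 11.4-fold (log2FC -3.51 ± 0.22 SE, edgeR FDR = 1.0e-08). In H1792 it had 10.9, 12.8 and 12.1 CPM with DMSO and 9.20, 7.99 and 9.42 CPM with AMG900. These did not overlap, and KIF14 was called lower by 1.34-fold (log2FC -0.42 ± 0.10 SE, edgeR FDR = 0.0059). The call was lost in 5 of the 6 fits that left out a library, with FDR between 0.0130 and 0.0327, and was kept only without DMSO replicate 1 (FDR = 5.5e-04).

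Groups that do not overlap were common in these data and are read against all genes. In H1792 the AMG900 libraries were all below the DMSO libraries for 6 of 10 kinesins (KIF4A, KIF11, KIF14, KIF15, KIF18A and KIF18B) and all above for KIF20A, where 29.6% and 30.1% of all genes tested had such groups. In A549 this held downward for the 9 tested kinesins, against 22% of all genes, and upward for none, against 21.9%.

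A joint fit over the 14 libraries asked, by its line-by-treatment term, whether the response differed between A549 and H1792. For 8 of the 10 kinesins the change was called higher in H1792 than in A549 and for none lower, where 5.37% and 9.17% of 14769 genes were called in these directions. The gap was largest for KIF18B (3.66 ± 0.16 SE on the log2 scale, edgeR FDR = 2.9e-12), KIF15 (3.47 ± 0.32 SE, edgeR FDR = 1.1e-07) and KIF20A (3.38 ± 0.16 SE, edgeR FDR = 6.5e-12). KIF14, KIF4A, KIF2C, KIF11 and KIF23 followed with gaps of 3.02, 2.96, 2.93, 2.91 and 2.67. The remaining pair was not called. KIF18A had a gap of 0.95 with a 95% interval from 0.15 to 1.76 (edgeR FDR = 0.0795), and KIFC1 had 1.63 (edgeR FDR = 0.0472). Relative to the DMSO mean of the line, the mean log2 CPM of the tested kinesins was -3.23 to -3.09 in the A549 AMG900 libraries and -0.28 to -0.18 in those of H1792.

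**Figure D3:**
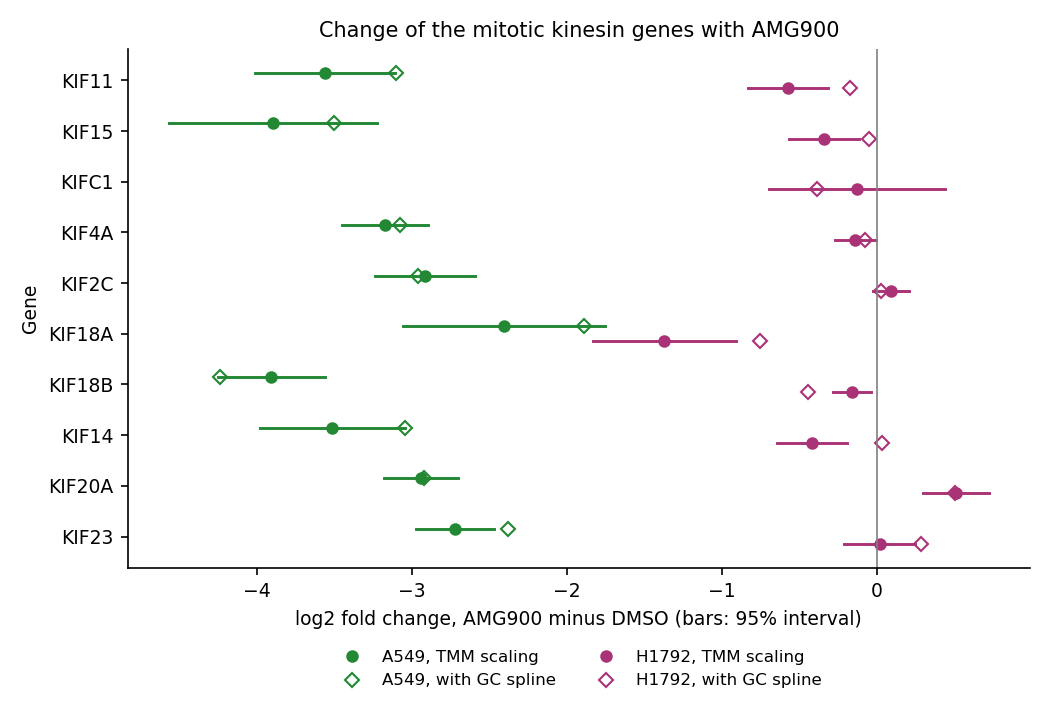
Log2 fold change of each kinesin gene with AMG900 (x axis) in A549 (green) and H1792 (purple); filled points with bars give the TMM fit and its 95% interval, and open diamonds give the same change with a GC content spline. The A549 changes of the 9 tested genes lie between -3.91 and -2.40, and those of H1792 between -1.37 and 0.51, with KIFC1 shown for H1792 only and KIF14 of H1792 crossing 0 with the spline.

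The lines also differed before treatment. Among DMSO libraries, H1792 had more KIF2C (3.04-fold, log2 difference 1.61 ± 0.10 SE), KIF18B (2.20-fold) and KIF20A (1.37-fold), and less KIF18A (1.95-fold), KIF4A (1.67-fold) and KIF23 (1.43-fold), all called, where 34.2% of all genes were called higher and 31.9% lower. The KIF18A call was lost without H1792 DMSO replicate 1 (edgeR FDR = 0.0171) and without H1792 DMSO replicate 3 (edgeR FDR = 0.0135). KIF11, KIF14, KIF15 and KIFC1 were not called. KIF11 became called lower in 2 of 8 other alternatives and in 2 of 14 fits that left out a library. KIFC1 became called higher in 1 of 7 other alternatives. Line, count table and depth cannot be told apart in this comparison. Per kilobase of annotated transcript, the order in A549 DMSO libraries was KIF20A (36.6 ± 4.83 CPM per kb, SD, n = 4), KIF2C (22.7 ± 1.31), KIF23 (22.0 ± 0.992), KIF4A (20.7 ± 3.74), KIF18B (11.9 ± 0.771), KIF11 (4.90 ± 1.23), KIF18A (1.89 ± 0.548), KIF15 (1.76 ± 0.384), KIF14 (1.47 ± 0.0518) and KIFC1 (0.250 ± 0.0849). KIF2C, KIF23 and KIF4A did not differ beyond their spread, nor did KIF18A, KIF15 and KIF14. In H1792 DMSO libraries KIF2C led (64.2 ± 2.59 CPM per kb, n = 3), before KIF20A (47.4 ± 7.66), KIF18B (24.5 ± 1.04), KIF23 (14.3 ± 2.33), KIF4A (11.5 ± 0.141), KIF11 (3.28 ± 0.424), KIF14 (1.63 ± 0.130), KIF15 (1.49 ± 0.0260), KIF18A (0.871 ± 0.192) and KIFC1 (0.458 ± 0.0748). Of these neighbours KIF14 and KIF15 did not differ beyond their spread. The place of KIFC1 in both lines rests on the low counts described above, whose cause was not tested. With AMG900, KIF20A made up 31.6% of the summed kinesin CPM per kb in A549 and 35.9% in H1792, and KIF2C 19.4% and 36.4%.

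GC content moved with the fold changes. Across all genes, which are not independent replicates, log2FC was higher for transcripts of higher GC content, with a Spearman's rho of 0.499 for A549 and 0.481 for H1792. The kinesin transcripts range from 36.0% GC (KIF18A) to 58.4% (KIF18B), and across them rho was -0.23 over 9 genes in A549 and 0.70 over 10 genes in H1792, given as a description of points that share their libraries. A spline for GC content in each library kept all 9 calls in A549, with log2FC between -4.24 (KIF18B) and -1.89 (KIF18A). In H1792 the spline changed the list of calls. KIF18A stayed lower (log2FC -0.76, edgeR FDR = 0.0064) and KIF20A stayed higher (0.50, edgeR FDR = 5.9e-04), KIF18B became lower (-0.45, edgeR FDR = 1.3e-04), KIF23 became higher (0.28, edgeR FDR = 0.0067), and KIF11 (-0.18, edgeR FDR = 0.166) and KIF14 (0.03, edgeR FDR = 0.746) were no longer called. The interaction again called 8 kinesins.

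**Figure D4:**
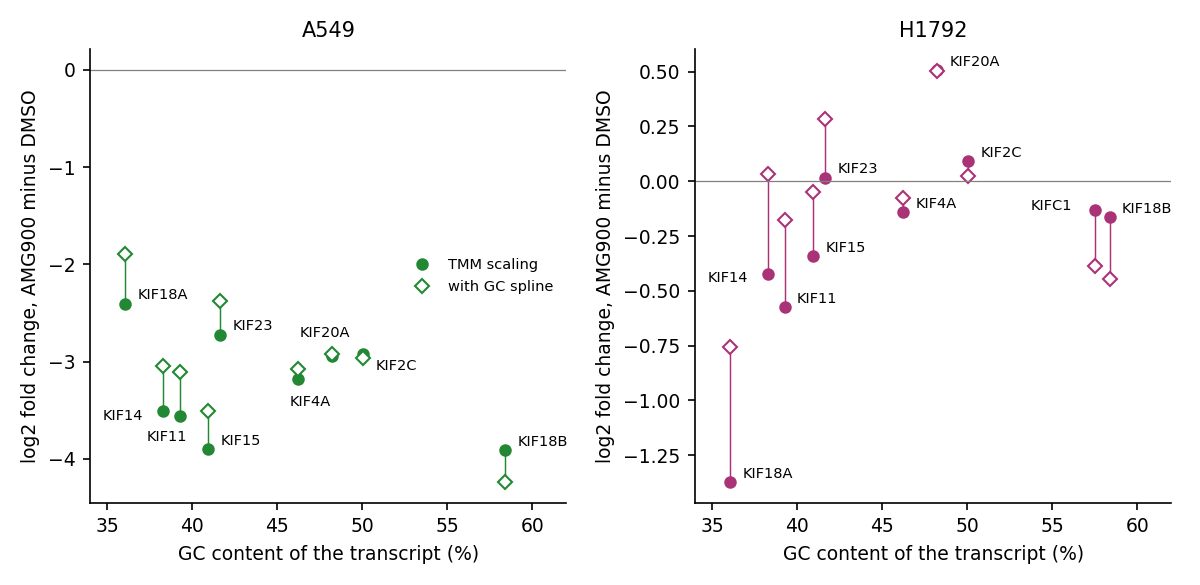
Log2 fold change with AMG900 (y axis) against the GC content of the transcript in percent (x axis) for the kinesin genes tested in A549 (left) and H1792 (right; the y axes differ), filled points for TMM scaling and open diamonds with a GC content spline. In A549 every diamond stays under -1.8, and in H1792 the low-GC genes KIF18A, KIF14 and KIF11 move up with the spline while KIF18B and KIFC1 move down.

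Pairs of kinesins were set against each other within each library. The log2 ratio of KIF18A to KIF18B was -2.96 ± 0.44 (SD, n = 4) with DMSO and -1.44 ± 0.69 with AMG900 in A549. The exact two-sided permutation p was 0.0286, the smallest that 4 against 4 libraries allow, and 0.171 after adjustment over 6 ratios. In H1792 the ratio went from -5.09 ± 0.32 to -6.29 ± 0.21 (n = 3, exact permutation p = 0.1, the smallest that 3 against 3 libraries allow). The ratio moved in opposite directions in the 2 lines. Because these smallest p-values exceed 0.01, no shift could pass, and the test cannot decide on either. KIF18A and KIF18B are the ends of the GC range of the kinesins, and the ratios were not corrected for GC content. With the GC spline described above, log2FC was -0.76 for KIF18A and -0.45 for KIF18B in H1792, and -1.89 and -4.24 in A549. KIF20A relative to KIF23 changed by -0.19 in A549 (exact permutation p = 0.229) and by 0.49 in H1792 (p = 0.1, exact), and KIF11 relative to KIF15 by 0.50 (exact permutation p = 0.2) and -0.23 (p = 0.3, exact).

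Counts in each list are read against all genes tested. Of these, 17.8% were called lower and 17.2% higher in A549, and 18.8% and 16.2% in H1792. Other kinesins with mitotic roles were read from a list of 6, of which 4 were tested in A549 and 5 in H1792. All 4 fell in A549, with a median log2FC of -2.32, led by KIF20B (-3.08, edgeR FDR = 9.3e-05), a cytokinesis motor, and CENPE (-2.39, edgeR FDR = 1.9e-05), which carries chromosomes to the plate. These 2 had few counts with AMG900, 7 to 11 and 8 to 24 per A549 library. KIF20B also spread from 2.79 to 11.5 CPM with DMSO. KIF22 (-2.25) and KIF2A (-1.90) complete the list. In H1792, KIF4B (-1.82, edgeR FDR = 8.6e-04), KIF20B (-1.49, edgeR FDR = 6.1e-05) and KIF2A (-0.96) fell, while CENPE (-0.04) and KIF22 (0.18) were not called. The 28 transport and other kinesins had medians of 0.03 in A549 and -0.09 in H1792. In A549, 6 of the 22 tested were lower and 4 higher, and in H1792 6 of 24 were lower and 3 higher. KIF24, a centriole motor, fell the most in A549 (-2.26), followed by KIF26A (-1.16), and KIF17 (0.95) and KIFC2 (0.62) rose the most. In H1792, KIF5B (-0.94), the ubiquitous conventional kinesin heavy chain, and KIF21A (-0.94) fell the most, and again KIF17 (0.69) and KIFC2 (0.60) rose the most. Among 6 light chains and adaptors, KLC4 rose in both lines (0.90 and 0.58) and KIF1BP, listed under an older symbol, fell in both (-0.65 and -0.76), and KLC2 rose in H1792 (0.29). The opposing motor, dynein with dynactin, had 5 lower and 2 higher of 15 tested genes in A549 (median -0.15). In H1792 it had 4 lower and 8 higher of 16 (median 0.22), against 18.8% and 16.2% of all genes tested. PAFAH1B1, the dynein regulator LIS1, fell in both lines (-0.49 and -0.63) and DYNLRB1, a dynein light chain, rose in both (0.46 and 0.79). DYNC1LI2 (-0.38) and DYNC1H1 (0.31) in A549 and DYNC1I1 (-0.86) and NDEL1 (0.49) in H1792 were the others at the ends of that list.

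**Figure D5:**
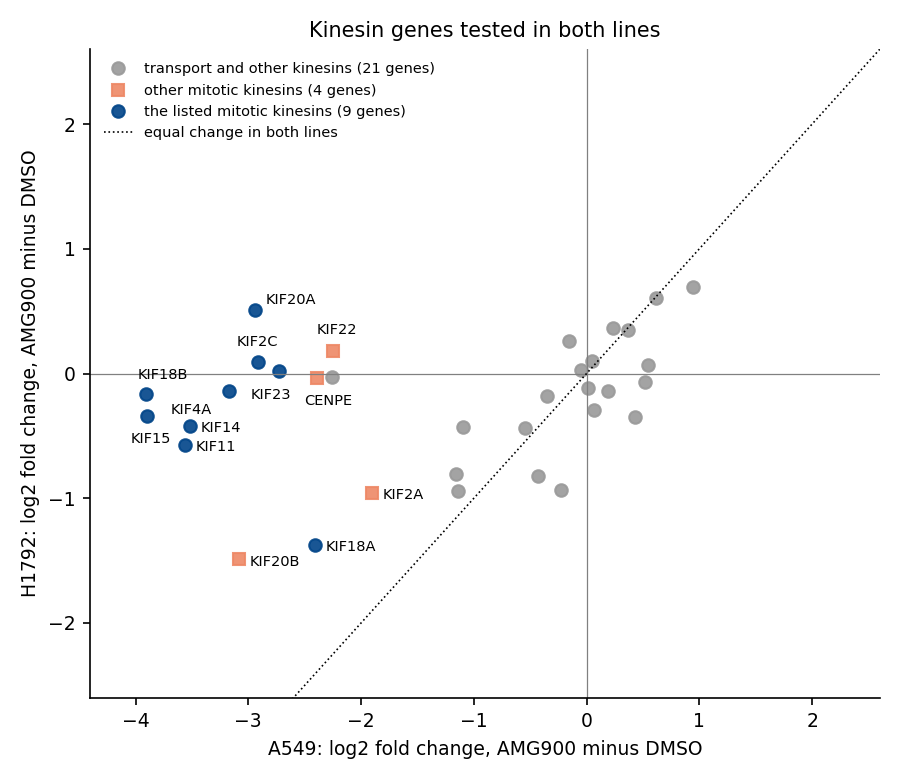
Log2 fold change with AMG900 in A549 (x axis) against H1792 (y axis) for kinesin genes tested in both lines: the 9 mitotic kinesins of the set (blue), 4 other mitotic kinesins (orange) and 21 transport and other kinesins (grey), with a dotted line where both changes are equal. The blue points lie between -3.91 and -2.40 on the x axis and, apart from KIF18A at -1.37, between -0.57 and 0.51 on the y axis.

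Partners and kinases that load or switch these motors were read from a list of 20. In A549, 19 fell and 1 rose (median log2FC -2.76), against 17.8% and 17.2% of all genes tested. ECT2 (-3.80, edgeR FDR = 2.5e-05), the RhoA activator of cytokinesis, and CDK1 (-3.61, edgeR FDR = 2.7e-07), the mitotic kinase, fell the most. Both had few counts with AMG900, 8 to 11 and 6 to 33 per library. ECT2 also spread from 3.92 to 18.8 CPM with DMSO. NUMA1 (0.26), the spindle pole protein, was the one that rose. In H1792, 4 fell and 2 rose (median 0.00), against 18.8% and 16.2% of all genes tested. ECT2 (-1.74, edgeR FDR = 8.0e-05) and RACGAP1 (-0.71, edgeR FDR = 1.2e-04) were lowest, and NUMA1 (0.27) and AURKB (0.24, edgeR FDR = 0.0084) were the risers. The interaction was called for 16 of the 20, all higher in H1792, where 5.37% of all genes were called in that direction. RACGAP1, PRC1 and CIT, added after their values were seen because they bind KIF23, KIF4A and KIF14, fell in A549 by 3.04, 3.12 and 3.00 on the log2 scale. In H1792 PRC1 (0.13) and CIT (0.13) were not called.

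Regulators of mitotic transcription were read from a list of 18. In A549, 10 fell and 2 rose, against 17.8% and 17.2% of all genes tested. MYBL2 (-3.46, edgeR FDR = 1.1e-11) and FOXM1 (-3.01, edgeR FDR = 2.1e-11), both parts of the activating complexes, fell the most. CDKN1A, the gene of the CDK inhibitor p21, rose in A549 (1.73, edgeR FDR = 6.5e-11) and in H1792 (0.60, edgeR FDR = 1.9e-05), and its interaction was called lower in H1792 (-1.21). LIN37, a DREAM subunit, rose in A549 (0.69). In H1792, 9 fell and 2 rose, against 18.8% and 16.2% of all genes tested. RB1 (-1.57, edgeR FDR = 3.8e-04) and LIN9 (-0.72) were lowest and NFYC (0.44) was the second riser. MYBL2 and FOXM1 were at -0.33 and -0.22. Outside the 10 genes, those whose values relative to DMSO were most like the mean of the tested kinesins over the 14 libraries were CDC6 (Pearson's r = 0.997), RFC2 (0.997), ZWINT (0.997), BIRC5 (0.996) and MYBL2 (0.996), out of 12616 candidates. This is a description over libraries that fall into 2 lines and 2 treatments, and the gene in place 100 still had r = 0.985.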

How the data were processed

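Total RNA of A549 and H1792 cells was sequenced on a NextSeq instrument, and the authors deposited raw read counts per gene symbol, 1 table per line. The submitters' processing notes name STAR, HTSeq, hg19 and GRCh37, with versions, annotation and strand setting not given in the sources used here. Without strand, reads of a gene and of a gene overlapping it on the other strand cannot be told apart, which bears on KIF2C, KIF4A, KIF20A and KIF23, and KIF15 overlaps a gene on its own strand. Each table has 26760 entries, and 28 date entries of H1792 (0.101% to 0.117% of its counts) were left out. Positions, lengths and GC content come from GENCODE for GRCh37, matched by symbol. Counts were filtered with filterByExpr, scaled by TMM and tested with the edgeR 4.0.16 quasi-likelihood test (R 4.3.3) at an FDR of 0.01, after a test on simulated counts. The design was set per line, with the interaction and the DMSO groups in one fit. The common biological coefficient of variation was 12.8% in A549 and 9.60% in H1792, and intervals cover 95%. SE is the log2 fold change over the root of the F statistic. Log2 CPM used a prior count of 2. Replicates of a group differed by more than sampling noise (chi-square per gene 3.32 to 48.3), so none was a copy of another's reads. Each library counted as a sample, although this cannot show that the dishes were separate experiments. The members, lists and motifs were chosen with earlier results of these data known. From each list the 2 genes that rose most and the 2 that fell most among those called in a line were named, and exceptions are marked. DESeq2 1.42.0, other scalings and filters, a GC spline with 5 degrees of freedom, a replicate block, other thresholds and leaving out each library were alternatives, and thinning H1792 to the depth of A549 was added after the data were seen. Protein sequences were not analysed here.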

Additional observations from a re-analysis of the deposited data

Results flagged for a closer look

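Of 20 groups of A549 libraries large enough for a test of single stray values, 2 had one, where chance flags about 1 in 20. Both lay in DMSO replicate 1, the smallest library. KIF20A was lowest there at 90.9 CPM, with the other 3 DMSO libraries between 120.2 and 121 CPM. KIF4A was highest there at 115 CPM, with the others between 81.2 and 84.7 CPM. Without this library the A549 log2 fold changes were -3.03 for KIF20A and -3.05 for KIF4A, and both remained called.

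The change with AMG900 differed between the lines, by the interaction term of edgeR, for 8 kinesins. The H1792 change minus the A549 change was 2.93 for KIF2C, 2.96 for KIF4A, 2.91 for KIF11, 3.02 for KIF14, 3.47 for KIF15, 3.66 for KIF18B, 3.38 for KIF20A and 2.67 for KIF23 on the log2 scale, and the count stayed at 8 in each of the 14 fits that left out a library.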

How the results depend on the processing

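In A549 the count of kinesins called lower was 8 to 9 over the other alternatives and 9 in every fit without a library. It was 8 when at least 10 counts were required in every library, which left KIF15 untested. In H1792 the counts moved. Called lower were 5 at an FDR of 0.05, 1 with a change of at least 2-fold, 2 with the GC spline and 2 when thinned to the A549 depth. Called higher were 2 with the GC spline and 0 with a change of at least 2-fold. Leaving out each library gave 1 to 5 lower and 0 to 1 higher in H1792: 1 lower without AMG900 replicate 1 and without AMG900 replicate 3, 5 without DMSO replicate 1, and 0 higher without AMG900 replicate 1. For the DMSO comparison between lines, 0 were lower by at least 2-fold, and KIF15 reversed to 0.14 with the GC spline. In H1792 KIF23 reversed to -0.052 with scaling by total counts and ranged from -0.13 to 0.11 over the fits without a library, below 0 without AMG900 replicate 3 and without DMSO replicate 1, and KIF14 reversed to 0.035 with the GC spline. The cause of these shifts was not tested. The interaction called 7 to 9 kinesins over the other alternatives.

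Same-numbered libraries did not deviate together (correlations between -0.06 and 0.04), so the numbers were taken as names. With a replicate block, A549 kept 9 lower and the interaction 8 higher, H1792 had 2 lower and 1 higher with KIF14 at an edgeR FDR of 0.0111, and the DMSO comparison had 2 lower and 2 higher, with KIF18A (FDR 0.0101) and KIF20A (FDR 0.0361) no longer called. In H1792, 1 of 3 numbers correlated best with itself, and in A549 none did. Few counts limited the precision for KIFC1 in A549 (1 to 12 per library) and for KIF15 there with AMG900 (4 to 14), and the cause of the low KIFC1 counts was not tested.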
